A study of Mus musculus with 21 samples.

Results

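Mouse embryonic stem cells (ESCs) held in the naive state by LIF and 2 kinase inhibitors were followed by polyA RNA sequencing after these factors were withdrawn, and the interval described here runs from 12 h to 24 h of culture without retinoic acid (RA). The libraries titled NoRA24h (noRA_24h, 3 libraries) were set against those titled NoRA12h (noRA_12h, 3 libraries), 6 of the 21 libraries in the series. All of these cells carried the label wildtype and the cell line label ESC, with no further line or clone named. Before withdrawal they grew on gelatin in serum with LIF, 1 µM PD0325901 (a MEK inhibitor) and 3 µM CHIR99021 (a GSK3 inhibitor), the pair called 2i. Other libraries of the same time course served as references: 3 from ESCs at 0 h (ESC_0h), 3 from cells given 2 µM RA for 12 h (RA_12h) and 3 from cells given it for 24 h (RA_24h). Withdrawal of LIF and 2i is not stated in the labels for the RA_12h and RA_24h cells. Levels are in TPM, a share of all transcripts that is scaled for gene length and library size, and changes are differences of log2(TPM + 1). A pseudocount of 1 makes the change of a low gene smaller than its TPM ratio. The labels do not say whether replicates were separate cultures, so every p-value measures only the spread between these libraries, which may be technical.

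Naive ESCs correspond to the epiblast before implantation and depend on a network of transcription factors that includes Nanog, Esrrb, Klf4, Tfcp2l1 and Tbx3. When LIF and 2i are removed, ERK signalling is released, GSK3 becomes active, the naive network is dismantled and cells pass through a formative state marked by Otx2, Pou3f1, Fgf5 and the de novo DNA methyltransferases, from which germ layers can later be induced. RA, an active form of vitamin A, steers such cells towards other fates.

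Of 13948 genes tested, 2380 (17.1%) were higher and 3148 (22.6%) were lower in noRA_24h than in noRA_12h at an adjusted p below 0.05 in limma, 39.6% in all. A change of at least 2-fold on the log2(TPM + 1) scale was reached by 501 of the higher genes (3.59% of those tested) and by 256 of the lower genes (1.84%). The median change over all tested genes was 0.05. After a correction for gene length and GC content the split was 2898 higher (20.8%) and 2159 lower (15.5%), so the balance between the directions depends on that choice. In the following, a call is described as kept when it also held, in the same direction, with each of the 6 libraries left out in turn, with the length and GC correction and with a covariate for the axis described next. By this rule, which was added after the data were seen, 1149 higher calls (8.24%) and 1542 lower calls (11.1%) were kept.

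The noRA_12h libraries were not alike, and replicate 1 stood apart from the others. Pearson r of log2(TPM + 1) across genes was 0.966 between replicates 1 and 2, 0.984 between replicates 1 and 3 and 0.991 between replicates 2 and 3, while it lay between 0.993 and 0.994 within noRA_24h. A single axis held 67.2% of the variance within the 5 groups, and a gene's weight on it went with low GC content (Spearman rho of -0.70 across genes, which are not independent replicates). On this axis noRA_12h replicate 1 scored 31.8, beside the noRA_24h libraries at 31.5, 23.2 and 39.0, whereas replicates 2 and 3 scored -43.5 and -13.5. Replicate 2 thus lay nearly as far from its group's mean on one side as replicate 1 did on the other. Mitochondrial genes took 3.02%, 1.97% and 2.34% of TPM in the noRA_12h libraries and 2.83% to 3.22% in the noRA_24h libraries, and depth lay between 3.11 and 3.91 aligned gigabases in these 6. The gene Pds5a, which encodes a cohesin regulator, is an example: the noRA_12h libraries held it at 35.9, 4.89 and 11.7 TPM, the noRA_24h libraries at 47.2, 24.8 and 56.3 TPM, and its change of 1.56 (SE 0.75) did not pass (limma, adjusted p = 0.111). Without noRA_12h replicate 1 the calls were 3636 higher (26.1%) and 3404 lower (24.4%), among them 2162 of the 2380 higher calls and 2974 of the 3148 lower calls. Without noRA_12h replicate 2 only 1570 genes were called higher. What set these libraries apart was not tested.

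**Figure D1:**
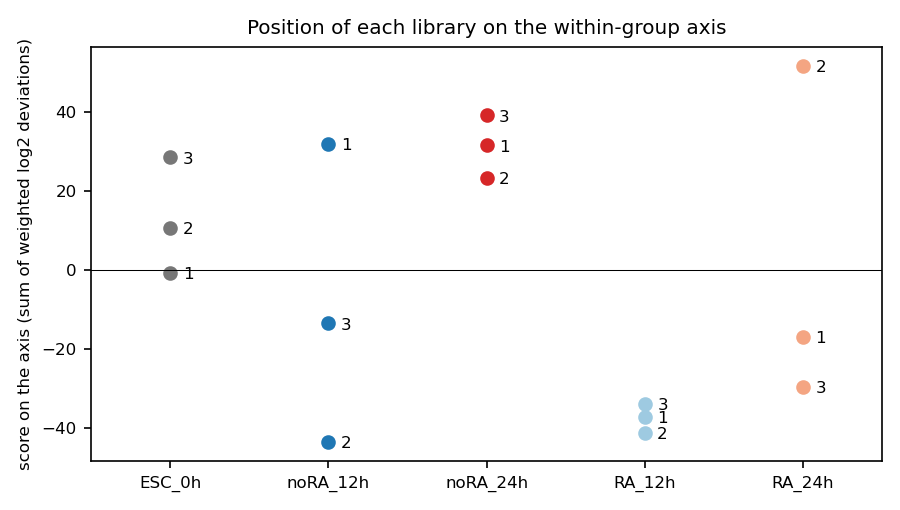
Score of each of the 15 time course libraries (points, with the replicate number beside each) on the axis that held 67.2% of the variance within groups, by group on the horizontal axis. Replicate 1 of noRA_12h, at 31.8, lies beside the 3 noRA_24h libraries, while its replicates 2 and 3 lie at -43.5 and -13.5.

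The genes that mark cells leaving the naive state without RA rose together. Fgf5 (ENSMUSG00000029337, chr5:98254184-98277030 in mm10), which encodes an FGF ligand of the epiblast, was listed at 0 in all 3 ESC_0h libraries, then at 0.482, 0.694 and 1.27 TPM in the noRA_12h libraries and at 13.6, 15.0 and 12.5 TPM in the noRA_24h libraries. Enpp2 (ENSMUSG00000022425, chr15:54838901-54952892), the secreted enzyme autotaxin that makes lysophosphatidic acid, went from 0.813, 0.184 and 0.338 TPM to 11.1, 8.44 and 11.4 TPM. Vrtn (ENSMUSG00000071235, chr12:84641019-84651455), which encodes a DNA-binding protein known from pigs for its link to the number of vertebrae, went from 0.298, 0.986 and 0.620 TPM to 11.7, 11.1 and 12.5 TPM. For all 3 genes the lowest noRA_24h library was far above the highest noRA_12h library. All noRA_24h libraries lay above all noRA_12h libraries in 24.2% of the tested genes, and below them in 27.9%. The changes were 3.04 (SE 0.14, adjusted p = 1.71e-08) for Fgf5, 2.98 (SE 0.16, adjusted p = 3.78e-08) for Enpp2 and 2.98 (SE 0.15, adjusted p = 2.53e-08) for Vrtn in limma. In mean TPM these are rises of 16.8-fold, 23.2-fold and 18.5-fold. Fgf5 and Enpp2 had risen less before 12 h (0.84 and 0.45 on the log2 scale from 0 h). Vrtn had been higher at 0 h, with a mean of 1.38 TPM, than at 12 h, with 0.635 TPM. These earlier changes passed for Fgf5, Enpp2 and Vrtn (limma, adjusted p = 3.82e-04, 0.0375 and 0.00791), at levels where the pseudocount shrinks them. RNA from bulk culture cannot tell more cells that express a gene apart from more RNA per cell, here and in all that follows.

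The 250 bases before the annotated start of 4 genes that rose are shown because they stand for groups described in the text: Fgf5 and Vrtn for the formative genes, Bnip3 for hypoxia-inducible genes and Chac1 for targets of ATF4, the last pair chosen with their motif matches known. They are taken from RefSeq (GRCm38.p6) and written 5′ to 3′ on the gene's own strand, and Enpp2 had no entry in the table. Fgf5 lies at chr5:98253934-98254183 on the plus strand, Vrtn at chr12:84640769-84641018 on the plus strand, Bnip3 at chr7:138909507-138909756 on the minus strand and Chac1 at chr2:119350992-119351241 on the plus strand. Capitals mark matches to 3 motifs searched on both strands: TAATCC (a core bound by OTX2), ACGTG (the core of the hypoxia response element) and TGATGNAA (a composite core of ATF4). The window searched ran to 50 bases after the start. In Bnip3 the 2 capitalised matches to ACGTG, 1 on each strand, overlap in a single palindrome. In Chac1 the match to the ATF4 core is on the reverse strand. No match was found in Fgf5 or Vrtn. Adm and Ddit3, of the same 2 groups, were searched as well and are not shown: Adm held no match, and Ddit3 held ACGTG on the reverse strand, 21 bases past the start, but no ATF4 core. Among 32851 RefSeq promoters of the same length, 7.06% held TAATCC, 19.6% held ACGTG and 3.97% held TGATGNAA, so a match describes the letters and not a site in use.
Fgf5: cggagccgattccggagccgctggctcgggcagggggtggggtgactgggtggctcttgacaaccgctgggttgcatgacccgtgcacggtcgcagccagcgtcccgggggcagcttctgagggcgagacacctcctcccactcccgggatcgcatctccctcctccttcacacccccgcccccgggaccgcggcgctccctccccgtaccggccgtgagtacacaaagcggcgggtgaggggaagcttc
Vrtn: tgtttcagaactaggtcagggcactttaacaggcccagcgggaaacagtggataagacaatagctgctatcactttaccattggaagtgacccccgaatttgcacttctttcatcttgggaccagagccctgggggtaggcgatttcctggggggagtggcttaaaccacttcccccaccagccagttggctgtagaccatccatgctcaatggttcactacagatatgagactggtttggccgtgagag
Bnip3: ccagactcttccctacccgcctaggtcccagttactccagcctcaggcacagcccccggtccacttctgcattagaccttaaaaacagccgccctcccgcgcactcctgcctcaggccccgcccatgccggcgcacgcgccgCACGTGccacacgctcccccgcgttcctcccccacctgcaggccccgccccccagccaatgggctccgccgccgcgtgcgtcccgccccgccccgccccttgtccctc
Chac1: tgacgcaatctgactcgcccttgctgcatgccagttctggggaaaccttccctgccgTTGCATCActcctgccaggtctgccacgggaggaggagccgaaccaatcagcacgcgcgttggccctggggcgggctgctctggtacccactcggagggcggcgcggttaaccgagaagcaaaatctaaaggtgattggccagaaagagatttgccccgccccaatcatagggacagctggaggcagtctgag

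Of 22 genes listed for the formative and primed state, 17 were higher and 4 were lower at 24 h, with a median change of 0.91 against 0.05 over all genes, and 15 of the higher calls and 1 of the lower calls were kept. Counts of this kind, here and in all the lists that follow, stand against 17.1% of all tested genes called higher and 22.6% called lower. Lef1, the nuclear partner of β-catenin in WNT signalling, rose from 10.2, 9.60 and 8.69 TPM to 79.7, 80.4 and 73.3 TPM, a change of 2.91 (SE 0.13, adjusted p = 1.27e-08 in limma). It had stood at 20.2, 16.5 and 17.9 TPM at 0 h, so its 24 h level exceeded the starting level as well. The POU factor gene Pou3f1 rose by 2.09 (SE 0.13), from a mean of 11.5 ± 1.98 TPM (SD, n = 3) to 51.6 ± 4.32 TPM, and Car4, a membrane-bound carbonic anhydrase, by 2.41 (SE 0.10), from 5.92 ± 0.219 to 35.8 ± 0.990 TPM. Otx2, the homeobox factor that directs the formative programme, rose by 0.94 (SE 0.10), from 94.3, 80.7 and 85.7 TPM to 167, 174 and 162 TPM. Most of the rise of Otx2 came earlier, since its change from 0 h to 12 h was 4.21 (SE 0.10). Zic2 and Zic5, zinc finger factors of the epiblast and neural plate, rose by 1.07 (SE 0.09) and 1.53 (SE 0.25). Nodal, Etv4, Etv5 and Foxd3 were the 4 that fell, by 0.47, 0.71, 0.22 and 0.41 on the log2 scale, and Etv4, an ETS factor downstream of FGF and ERK, was the fall that was kept, while that of Etv5 turned to 0.0070 with the length and GC correction. N-cadherin, encoded by Cdh2, was at 1.93 ± 0.272 and 2.21 ± 0.271 TPM and did not pass.

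The de novo DNA methyltransferases continued upward. Dnmt3a was at 91.8, 102 and 95.4 TPM at 12 h and at 195, 171 and 168 TPM at 24 h, a change of 0.88 (SE 0.08, adjusted p = 4.18e-06 in limma). Dnmt3b went from 260 ± 14.4 to 421 ± 23.5 TPM (SD, n = 3), a change of 0.69 (SE 0.06), and their cofactor Dnmt3l rose by 0.33 (SE 0.07). From 0 h to 12 h the rises of Dnmt3a, Dnmt3b and Dnmt3l had been larger, at 3.21, 1.69 and 2.96. No other gene of the 9 in the list for DNA methylation and demethylation passed, while 5 were higher with the length and GC correction. The maintenance enzyme Dnmt1 was at 214 ± 2.43 and 225 ± 12.5 TPM. The demethylases Tet1 and Tet2 could hardly be measured here: the noRA_12h libraries held Tet1 at 52.2, 7.72 and 14.8 TPM, the noRA_24h libraries at 32.1, 24.7 and 30.3 TPM, so that the 12 h libraries span the 24 h levels. With the axis as a covariate the change of Tet1 turned from 0.62 to -0.59 and that of Tet2 from 0.68 to -0.65.

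The naive network continued down. Among 15 naive genes 12 were lower and none was higher, with a median change of -1.12, and 11 of these calls were kept. Tbx3, a T-box factor, had similar levels at the first 2 times: it stood at 98.3, 91.0 and 97.3 TPM at 0 h, at 93.5, 98.6 and 97.0 TPM at 12 h, and at 21.2, 20.0 and 19.6 TPM at 24 h. Its change of -2.20 (SE 0.06, adjusted p = 2.64e-10 in limma) was the largest fall in the list. Nr5a2, an orphan nuclear receptor, likewise was at 20.1 ± 2.87 TPM (SD, n = 3) at 12 h, near its 0 h libraries at 21.3, 22.5 and 27.0 TPM, and then fell by 1.68 (SE 0.13) to 5.58 ± 0.680 TPM. Nanog was at 413, 358 and 437 TPM at 12 h and at 158, 172 and 162 TPM at 24 h, and the fall of 1.29 (SE 0.07) followed one of 0.39 in the first 12 h. Tfcp2l1, Esrrb and Klf4 had already lost 1.87, 0.93 and 1.52 on the log2 scale by 12 h, and fell by a further 1.37 (SE 0.10), 1.33 (SE 0.10) and 1.18 (SE 0.07). At 24 h their levels were 21.6 ± 1.14, 125 ± 10.8 and 23.2 ± 1.18 TPM.

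The other 3 naive genes did not pass in the main fit. Nr0b1 had means of 192 ± 24.8 TPM and 176 ± 5.13 TPM (SD, n = 3) at the 2 times, and Dppa3 of 4.38 ± 0.445 and 3.95 ± 0.827 TPM. Without noRA_12h replicate 1 the change of Nr0b1 was -0.23 and passed (adjusted p = 0.0446 in limma), while that of Dppa3 did not. With the length and GC correction that of Dppa3 was -0.46 and passed (adjusted p = 0.0291 in limma), while that of Nr0b1 was 0.11 and did not. Fbxo15, at 111, 43.4 and 53.7 TPM at 12 h and 67.2, 59.9 and 72.8 TPM at 24 h, depends on the library axis: its change was 0.06 in the main fit and -0.66 with the axis as a covariate (adjusted p = 1.75e-04 in limma). That p-value can be too small, since the axis was drawn from these same libraries. Zfp42, the marker also called Rex1, was still at 380 ± 20.7 TPM (SD, n = 3) at 24 h, after 501 ± 65.1 TPM at 12 h, and its fall of 0.39 (SE 0.12) was the call that was not kept. Of 12 genes of general pluripotency 2 were higher and 3 lower, with a median of 0.04, all 5 calls were kept, and without noRA_12h replicate 1 the counts were 5 higher and 4 lower. Pou5f1, which encodes OCT4, stood at 2882, 3393 and 3081 TPM and then at 2805, 2717 and 2757 TPM, and its change of -0.17 (SE 0.07) did not pass (limma, adjusted p = 0.0713). Without noRA_12h replicate 1 the change of Pou5f1 was -0.23 and passed (adjusted p = 0.0253 in limma), and with the length and GC correction it was 0.09 and did not. Sox2 fell by 0.34 (SE 0.06) and Sall4, a zinc finger factor, by 0.91 (SE 0.06). Tdgf1, the NODAL coreceptor also called Cripto, rose by 1.12 (SE 0.07), from 377 ± 24.4 to 819 ± 35.4 TPM.

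**Figure D2:**
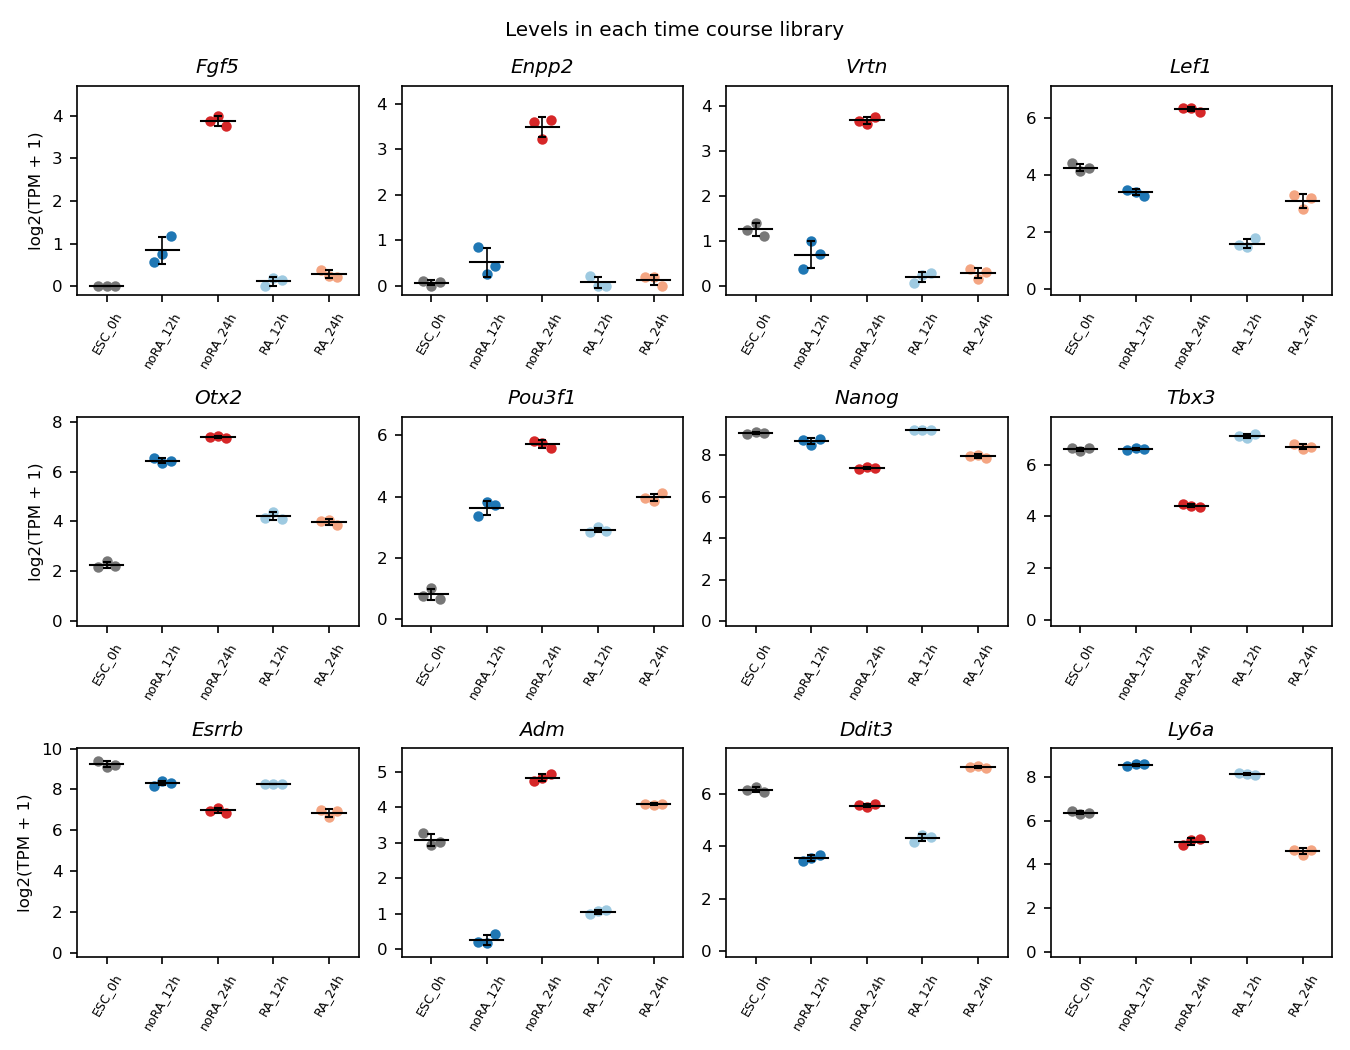
Level of 12 genes, as log2(TPM + 1), in each of the 15 time course libraries (points), with the mean and SD of each group of 3 (bars). Fgf5, Enpp2 and Vrtn are high in noRA_24h and low in the other groups, Tbx3 is low in noRA_24h and higher elsewhere, and Adm and Ddit3 are low in both 12 h groups.

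Among genes with a mean of at least 5 TPM at one of the times and libraries that do not overlap, predicted models left out, the largest rise belonged to a gene that had gone down in the first 12 h. Adm, which encodes the peptide hormone adrenomedullin, was at 8.63, 6.60 and 7.19 TPM at 0 h, at 0.147, 0.135 and 0.356 TPM at 12 h and at 25.8, 27.6 and 29.4 TPM at 24 h. The 3 groups did not overlap, and the change from 12 h was 4.56 (SE 0.11, adjusted p = 3.94e-11 in limma). The other genes among the 12 largest rises, besides those named already, fall into those that had dropped before 12 h and those that had not. Nupr1, a small nuclear protein induced by stress, and Ier3, an early response gene, had dropped and came back: Nupr1 had means of 91.7, 6.02 and 48.0 TPM at 0 h, 12 h and 24 h, and Ier3 of 57.7, 10.5 and 75.5 TPM. Bnip3, a mitochondrial receptor for mitophagy, was at 100, 73.3 and 91.7 TPM at 12 h and at 534, 570 and 530 TPM at 24 h, after 167, 197 and 196 TPM at 0 h. Fgf15, an FGF ligand, rose at both steps, from 2.28 to 10.7 and then to 66.6 TPM in the mean, and the later change was 2.53 (SE 0.13). Calca, the gene of calcitonin and CGRP, and Gadd45g, a growth arrest gene, rose by 2.61 (SE 0.14) and 2.58 (SE 0.18), to 42.4 ± 3.22 and 45.7 ± 1.65 TPM (SD, n = 3). Skil, a corepressor of SMAD proteins, was the least certain of the 12, with 13.8, 1.87 and 3.59 TPM at 12 h against 35.1, 27.8 and 44.9 TPM at 24 h. Its change of 2.65 had an SE of 0.64 (adjusted p = 0.00598), and it became 1.35 with the axis as a covariate and 3.32 without noRA_12h replicate 1.

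Several of the 12 largest falls were in genes that stood higher at 12 h than at either other time. Ly6a, a surface protein also called Sca-1, was at 85.3, 78.3 and 79.4 TPM at 0 h, at 363, 377 and 387 TPM at 12 h and at 28.2, 33.5 and 34.7 TPM at 24 h, so that the 24 h level was below the starting level. The change of -3.51 (SE 0.08, adjusted p = 3.94e-11 in limma) was the largest fall. Its relative Ly6c1 fell by 2.21 (SE 0.26), from 26.4 ± 2.24 to 4.91 ± 0.461 TPM (SD, n = 3), though reads of such closely related genes can be divided in error between them. Krtdap, a gene of differentiating keratinocytes, fell by 3.20 (SE 0.20) from 16.5 ± 2.41 to 0.928 ± 0.520 TPM, and Kdr, the VEGF receptor, by 2.05 (SE 0.12) from 16.5 ± 1.44 to 3.23 ± 0.420 TPM. Kdr had been at 2.75, 2.88 and 3.39 TPM at 0 h, so its 24 h libraries lay close to where they began. Trim43b, from a family of near-identical copies, had means of 0.0735, 11.3 and 1.89 TPM at 0 h, 12 h and 24 h. Others had not been induced: the water and glycerol channel gene Aqp3 had means of 90.0, 33.0 and 5.45 TPM at the 3 times, and Mras, a small GTPase related to Ras, of 49.7, 56.3 and 10.5 TPM. The bHLH factor gene Msc, the membrane glycoprotein gene Gpnmb, Xaf1 and Nkain4 completed the 12, with changes of -3.06, -2.25, -2.14 and -2.01. All 24 of these calls were kept. In the first 12 h Msc, Gpnmb and Nkain4 had risen, by 0.78, 0.60 and 1.10, while the change of Xaf1 did not pass.

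**Figure D3:**
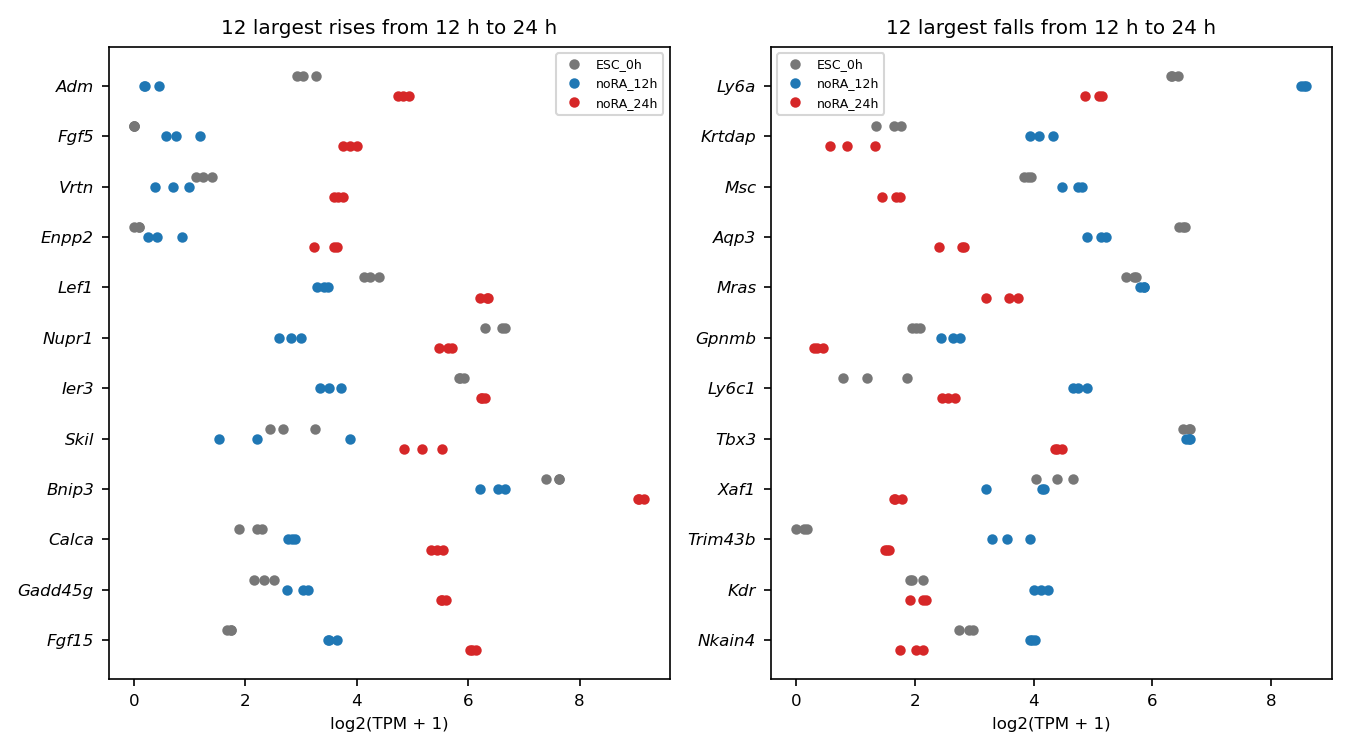
Level, as log2(TPM + 1), of the 12 genes with the largest rises (left) and the 12 with the largest falls (right) from 12 h to 24 h without RA, in each library of ESC_0h, noRA_12h and noRA_24h (points). In every row the noRA_24h points are separate from the noRA_12h points. For Adm, Nupr1, Ier3, Ly6a, Krtdap, Trim43b and Kdr, among others, the 12 h points lie below or above those of both other times.

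Genes induced by low oxygen through HIF formed the list with the highest median. This list was written after Adm and Bnip3 had been seen among the largest rises, so its direction is not independent evidence. Of its 23 genes 19 were higher, 1 was lower and 3 did not pass, with a median change of 1.37, and 15 of the higher calls were kept. Vegfa, the ligand of Kdr, was at 13.7, 10.9 and 11.2 TPM at 12 h and at 39.5, 36.1 and 39.0 TPM at 24 h, a change of 1.60 (SE 0.09, adjusted p = 3.78e-08 in limma). The collagen prolyl hydroxylase genes P4ha1 and P4ha2 rose by 1.93 (SE 0.13) and 1.63 (SE 0.08), and Egln3, an oxygen sensor that marks HIF for degradation, by 1.59 (SE 0.07), from 26.0 ± 1.47 to 80.4 ± 2.05 TPM (SD, n = 3). Pfkfb3, which sets the rate of glycolysis, rose by 1.70 (SE 0.11). The glucose transporter gene Slc2a1 rose by 0.53 (SE 0.08), from 344 ± 30.5 to 496 ± 8.33 TPM, and Car9 by 0.59 (SE 0.16), although it only reached 2.73 ± 0.723 TPM. Ak4, an adenylate kinase of mitochondria, was the exception and fell by 0.84 (SE 0.08), while Pfkfb4, Rora and Kdm3a had changes of -0.41, -0.21 and 0.20. Kdm3a, at 121, 44.1 and 64.2 TPM in noRA_12h, turned to -0.59 with the axis as a covariate. In the first 12 h, 15 members of this list had been lower and 1 higher than at 0 h (over all genes 20.4% and 22.0%), with a median of -0.84. Both intervals share the noRA_12h libraries, so their values are set side by side and not correlated. Summed over the list, the level was 3294 to 3435 TPM at 0 h, 2168 to 2342 TPM at 12 h and 3660 to 3802 TPM at 24 h.

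Targets of ATF4, the transcription factor of the integrated stress response, also rose. Of 16 genes 13 were higher and 1 was lower, with a median of 0.71, and 12 of the higher calls were kept. Chac1, which degrades glutathione, was at 6.54, 7.63 and 6.03 TPM at 12 h and at 35.1, 32.3 and 31.7 TPM at 24 h, a change of 2.14 (SE 0.11, adjusted p = 3.83e-08 in limma). Ddit3, which encodes CHOP, went from 9.90, 10.9 and 11.8 TPM to 45.9, 43.6 and 47.8 TPM and Ddit4, an inhibitor of mTORC1 that the hypoxia list also holds, from 62.6, 72.1 and 71.6 TPM to 276, 275 and 280 TPM. Neither pair of groups overlapped, and the changes were 1.98 (SE 0.08) and 2.00 (SE 0.07). Trib3, a pseudokinase that restrains ATF4, rose by 1.06 (SE 0.11), the folate enzyme gene Mthfd2 by 0.91 (SE 0.06) and Atf4 itself by 0.50 (SE 0.07). Asns, the asparagine synthetase gene, went the other way and fell by 0.38 (SE 0.05), from 685 ± 24.8 to 526 ± 13.4 TPM (SD, n = 3). Here too 14 members had been lower at 12 h than at 0 h, with a median of -0.95 for that interval.

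Glycolytic and sterol genes rose as well. In glycolysis and pyruvate metabolism 12 of 19 genes were higher and 2 lower at 24 h, with a median of 0.35, and 11 of the higher calls were kept. Tpi1 went from 540, 654 and 615 TPM to 1252, 1246 and 1215 TPM, and Ldha, the lactate dehydrogenase subunit that favours lactate, from 1559, 1862 and 1752 TPM to 3233, 3258 and 3239 TPM. Their changes were 1.04 (SE 0.08) and 0.91 (SE 0.07). Pdk1, which shuts pyruvate out of mitochondria, rose by 0.90 (SE 0.09). The other lactate dehydrogenase subunit gene, Ldhb, fell by 0.54 (SE 0.06) and the hexokinase gene Hk1 by 0.47 (SE 0.08), while Gapdh was at 5971 ± 151 and 6572 ± 140 TPM (SD, n = 3) and did not pass. In cholesterol and fatty acid synthesis 16 of 20 genes were higher and none was lower, with a median of 0.53, and 11 calls were kept. Insig1, the sterol-regulated brake on SREBP, rose from 31.8, 28.3 and 30.4 TPM to 57.5, 63.3 and 59.9 TPM, a change of 0.97 (SE 0.08), and Cyp51, a demethylase of sterol synthesis, rose by 0.95 (SE 0.06). Idi1 had the largest change of the list, 1.62, but with noRA_12h libraries at 29.8, 6.20 and 9.64 TPM its SE was 0.55, and the call was not kept. In the first 12 h, 14 of the glycolysis genes and 16 of the cholesterol genes had been lower. Of 20 nuclear genes for oxidative phosphorylation 2 were higher and 7 lower, with a median of -0.14. The lower count was 12 without noRA_12h replicate 1 and 4 with the axis as a covariate. Cox5a fell by 0.39 (SE 0.06), and it was the only call of that list that was kept.

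**Figure D4:**
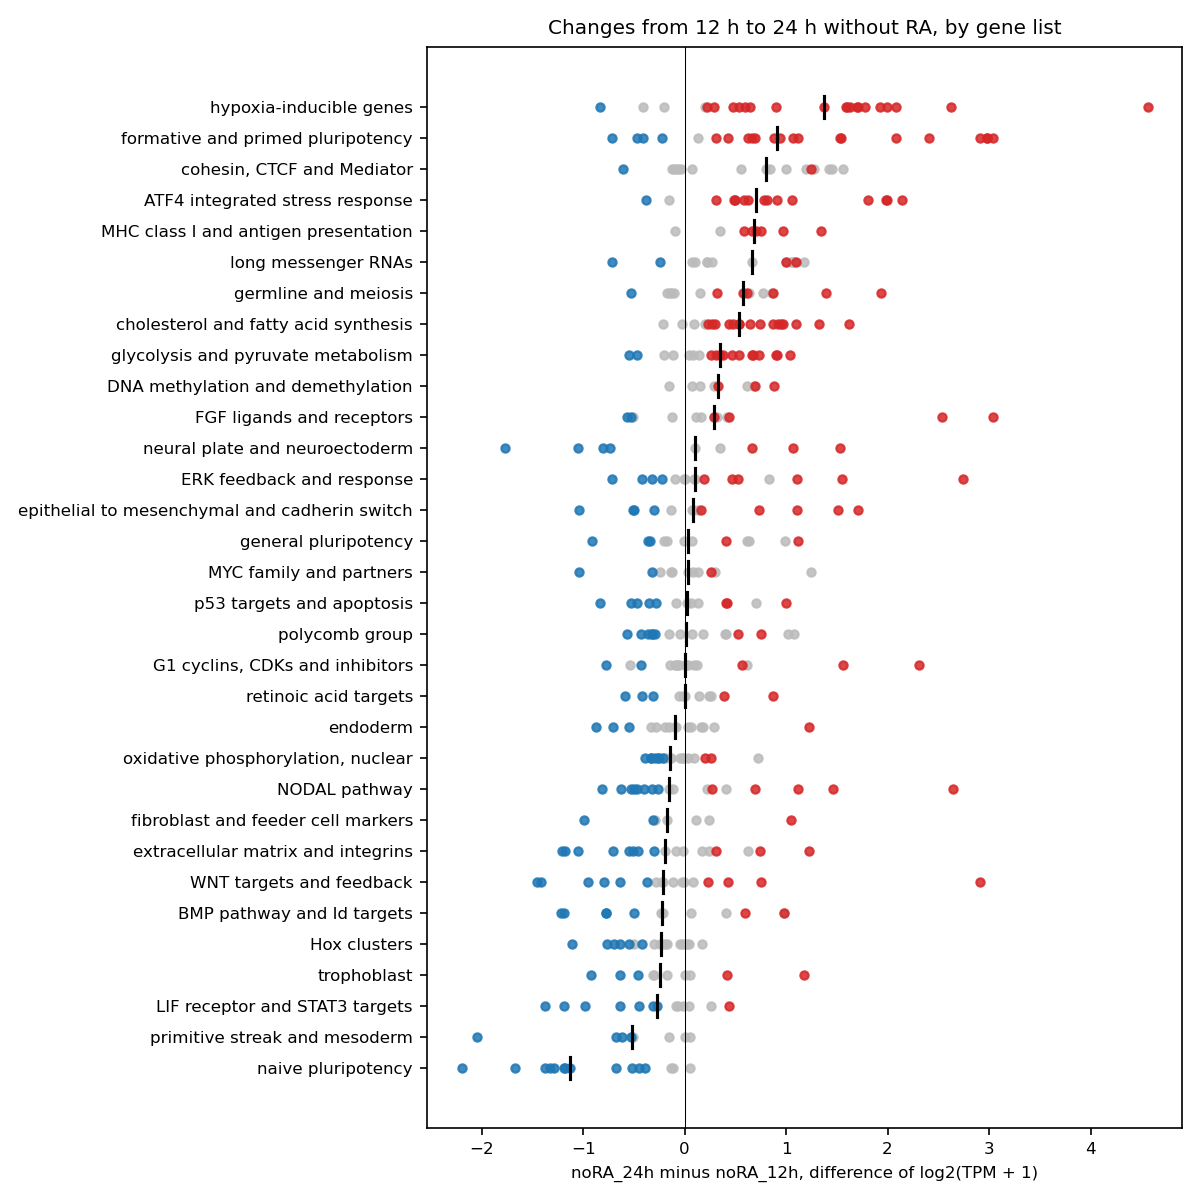
Change from 12 h to 24 h without RA of each tested member (points) of the gene lists with at least 5 tested genes, on the horizontal axis as a difference of log2(TPM + 1); red points are higher and blue points lower at an adjusted p below 0.05, grey points did not pass, and black bars are list medians. The median is 1.37 for the hypoxia-inducible genes at the top and -1.12 for the naive genes at the bottom.

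Signalling genes changed in mixed directions. Among FGF ligands and receptors 4 of 13 rose and 2 fell: Fgf4, the ERK-activating ligand of ESCs, rose by 0.44 (SE 0.08) and Fgf17 fell by 0.57 (SE 0.12), in addition to Fgf5 and Fgf15. Neither fall in this list was kept, and with the length and GC correction that of Fgf17 was -0.33 and did not pass (adjusted p = 0.0704 in limma). Dusp6, a phosphatase and feedback reader of ERK, had reached its level by 12 h, with 69.3, 79.1 and 79.9 TPM against 74.1, 78.9 and 75.9 TPM at 24 h and 3.72, 4.83 and 4.98 TPM at 0 h. The immediate early gene Egr1 kept rising, from 3.70 ± 0.235 to 12.7 ± 0.939 TPM (SD, n = 3), a change of 1.55 (SE 0.11, adjusted p = 2.90e-07 in limma). Over the 16 ERK feedback and response genes 6 were higher and 4 lower, with a median of 0.10, and the lower count was 2 with the length and GC correction or the axis. Of 13 genes of the LIF receptor and STAT3 list 7 were lower, Bcl3 by 0.98 (SE 0.14) and Pim3 by 0.63 (SE 0.10), and 1, Junb, was higher. The call of Junb was not kept (adjusted p = 0.0877 in limma without noRA_12h replicate 1), and 4 genes of the list were higher with the length and GC correction. Socs3, the feedback inhibitor of LIF signalling, had dropped before 12 h, from a mean of 159 TPM to 8.42 ± 1.59 TPM, and was at 7.95 ± 1.15 TPM at 24 h.

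Lef1 was alone among WNT genes in the size of its rise: of 17 genes 4 were higher and 6 lower, and 1 of the former and 5 of the latter calls were kept. Without noRA_12h replicate 1, 2 of the WNT genes were higher. The median of -0.21 became 0.06 with the length and GC correction. Cdx1, a caudal homeobox target of WNT, fell from 2.96, 3.54 and 4.48 TPM to 0.718, 0.714 and 0.639 TPM, and Sfrp1, a secreted WNT inhibitor, from 24.5 ± 0.710 to 8.59 ± 0.446 TPM (SD, n = 3). Axin2, the common feedback target, was at 15.6 ± 1.10 and 13.4 ± 0.744 TPM and did not pass. Without noRA_12h replicate 1 its change was -0.27 and passed (adjusted p = 0.0455 in limma), and with the length and GC correction it was 0.06 and did not. In the NODAL pathway 5 of 17 genes rose and 8 fell, and 5 fell with the length and GC correction. Its feedback inhibitor Lefty1 rose by 0.69 (SE 0.14), from 11.3, 15.9 and 15.3 TPM to 26.4, 20.9 and 22.6 TPM, while the inhibitory SMAD gene Smad7 fell by 0.81 (SE 0.09). In the BMP list 2 of 12 genes rose and 5 fell. The ligand gene Bmp4, which had gone from 2.67, 3.61 and 3.66 TPM at 0 h to 31.4, 33.8 and 33.6 TPM at 12 h, fell to 14.1, 14.3 and 13.4 TPM at 24 h. The Id genes, targets of BMP signalling, did not move as one. Id1 and Id2 rose by 0.60 (SE 0.12) and 0.98 (SE 0.19), while Id3 and Id4 fell by 0.50 (SE 0.12) and 0.78 (SE 0.15). Id4 was low, with means of 1.84 and 0.652 TPM.

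In the list for epithelial and mesenchymal states and cadherins 5 of 13 genes rose and 4 fell, with a median of 0.08, and 2 fell with the length and GC correction. Epcam, an epithelial adhesion molecule, was at 109, 135 and 138 TPM at 12 h and at 265, 288 and 269 TPM at 24 h, a change of 1.11 (SE 0.09, adjusted p = 1.71e-06 in limma). Esrp1, an epithelial splicing regulator, rose by 1.71 (SE 0.16) and the claudin genes Cldn7 and Cldn6 by 1.51 (SE 0.19) and 0.74 (SE 0.13). The intermediate filament gene Vim fell by 1.04 (SE 0.06), from 281 ± 20.0 to 136 ± 4.32 TPM (SD, n = 3), and fibronectin (Fn1) by 0.51 (SE 0.09). The keratin gene Krt18 of simple epithelia, which the trophoblast list holds, rose by 0.42 (SE 0.11) and its partner Krt8 fell by 0.46 (SE 0.14). Among matrix genes 3 of 17 rose and 8 fell, with a median of -0.19, but 6 rose and 6 fell with the length and GC correction, with a median of 0.02. Nid1, Hspg2 and Sparc fell by 1.18, 1.20 and 1.05, and Lamb1 and Itgb1 rose by 1.22 and 0.74. In the MHC class I list 6 of 8 genes rose and none fell. H2-K1 went from 21.1, 23.6 and 24.0 TPM to 60.8, 60.5 and 57.5 TPM, a change of 1.35 (SE 0.08), although its near-identical relatives make the assignment of reads uncertain, and the light chain gene B2m was at 13.5 ± 0.985 and 12.6 ± 1.58 TPM and did not pass. Cdkn1c, the imprinted gene of the cell cycle inhibitor p57, rose from 6.80, 8.51 and 5.47 TPM to 38.7, 39.0 and 35.6 TPM, the largest change (2.31, SE 0.14) among 17 genes of the G1 phase, of which 3 rose and 2 fell, near or below the shares over all genes, and 7 rose with the length and GC correction.

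Markers of other cells moved in mixed directions, and most of their defining factors were low. Of 8 tested genes of primitive streak and mesoderm 4 were lower and none was higher, and their summed level was 30.7 to 31.0 TPM at 12 h and 14.5 to 15.4 TPM at 24 h. Kdr, described above, made up most of that loss, since the other 7 summed to 13.1 to 15.7 TPM at 12 h and 11.2 to 12.5 TPM at 24 h. Of the 4 lower calls 2 were kept, and 2 were made with the length and GC correction. T (brachyury) was at 0.454, 1.02 and 0.715 TPM at 12 h and at 0, 0.162 and 0.192 TPM at 24 h, Gsc was listed at 0 in all 3 noRA_24h libraries, and Eomes was at 9.42 ± 1.19 and 9.76 ± 0.702 TPM (SD, n = 3). In the endoderm list 1 of 15 genes rose and 3 fell, all 4 of them genes of basement membrane, and the one that rose, Lamb1, went from 15.0 ± 1.34 to 36.5 ± 4.12 TPM (SD, n = 3). The defining endoderm factors were near 0, with Gata6 at 0.842 ± 0.130 and 1.27 ± 0.405 TPM, Sox17 at 0.286 ± 0.462 and 0.157 ± 0.0370 TPM and Hnf4a at 1.75 ± 0.119 and 1.42 ± 0.166 TPM. In the neural list 3 of 9 genes rose (Zic2, Zic5 and Sox3, all of which the formative list also holds) and 4 fell, among them Sox1, an early neural plate factor, which went from 2.50 ± 0.168 to 1.11 ± 0.234 TPM. Sox21 fell by 1.77 (SE 0.11), and Pax6 was at 0.895 ± 0.278 and 1.05 ± 0.353 TPM. Of 10 trophoblast genes 2 rose and 3 fell, near the shares over all genes, with Ascl2 up by 1.17 (SE 0.14), from 4.24 ± 0.948 to 10.7 ± 0.758 TPM, and Tfap2c down by 0.92 (SE 0.11). Fibroblast and feeder markers summed to 17.6 to 21.7 TPM and 17.6 to 22.7 TPM, with Col1a1 at 1.04 ± 0.0939 and 0.693 ± 0.330 TPM. Only 1 of 12 genes of the 2-cell-like state could be tested, and it did not pass. Among 18 tested Hox genes none rose and 6 fell (3 with the length and GC correction), and their summed level was 16.8 to 17.5 TPM at 12 h and 8.52 to 8.84 TPM at 24 h.

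To ask which genes changed differently than in the first 12 h, the earlier change was subtracted from the later one within the same limma fit. A gene that slowed or stopped passes as well as one that sped up or turned. Dusp6, for example, had a difference of -3.80 (SE 0.15), since it changed by 3.81 before 12 h and by 0.0069 after. The difference was higher for 2098 genes (15.0%) and lower for 2834 genes (20.3%), 35.4% in all, and noRA_12h enters both changes: without its replicate 1, 3174 genes were higher. Among genes that also passed from 12 h to 24 h, with the same genes left out as above for the largest changes, the largest positive difference was that of Adm, at 7.37 (SE 0.19), followed by Nupr1 at 6.53 (SE 0.23), Bhlhe40 at 5.23 (SE 0.15), Ier3 at 5.10 (SE 0.25), Ddit3 at 4.57 (SE 0.14) and Ubap1l at 4.52 (SE 0.37). Bhlhe40, a circadian and stress-responsive repressor, was at 68.3, 62.2 and 69.7 TPM, then at 4.70, 5.34 and 5.49 TPM and then at 19.8, 19.9 and 20.7 TPM. It thus recovered only in part, while Adm and Ier3 ended above their starting levels. The largest negative differences were those of S100a6, a calcium-binding protein gene, at -5.84 (SE 0.22), Krtdap at -5.74 (SE 0.34), Ly6a at -5.71 (SE 0.14), Ly6c1 at -5.70 (SE 0.44), the galectin gene Lgals3 at -5.61 (SE 0.15) and Trim43b at -5.57 (SE 0.26). Lgals3 was at 11.9, 10.7 and 11.2 TPM at 0 h, at 212, 260 and 237 TPM at 12 h and at 96.0, 89.2 and 92.2 TPM at 24 h, which leaves it above its start. The naive list had 9 genes with a lower and 2 with a higher difference, and the cholesterol list 18 of 20 with a higher one. In the formative list 13 of 22 genes had a lower and 4 a higher difference. Its median change had been 1.40 in the first 12 h.

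Whether the changes belonged to culture without RA was asked by subtracting the change from 12 h to 24 h with RA, which rests on 6 other libraries. Relative to that change, 374 genes (2.68%) moved up more or down less without RA and 581 genes (4.17%) moved down more or up less, 6.85% in all. These counts depend on RA_24h replicate 2, which stood apart from the others of its group (Pearson r of 0.968 and 0.958 with replicates 1 and 3, against 0.994 between those) and scored 51.6 on the axis, against -16.9 and -29.5. Without it 545 and 1075 genes differed, with the axis as a covariate 1190 and 1742, and with quantile normalization 320 and 279. Among the genes that also passed from 12 h to 24 h without RA, predicted models and low genes left out, Enpp2, Vrtn and Fgf5 had the largest positive differences. In RA_24h Fgf5 was at 0.303, 0.183 and 0.150 TPM, Vrtn at 0.293, 0.114 and 0.225 TPM and Enpp2 at 0.136, 0.141 and 0 TPM, all of them far below every noRA_24h library. Their differences were 2.88 (SE 0.20), 2.91 (SE 0.21) and 2.93 (SE 0.23), with adjusted p = 2.58e-06, 2.90e-06 and 4.72e-06 in limma. Without RA_24h replicate 2 they were 2.86, 2.85 and 2.96. Foxd3 and Sgk1 had positive differences too (2.16 and 2.26), as they fell by 0.41 and 0.28 without RA and by 2.57 and 2.53 with it. Psors1c2 rose by 0.84 without RA and fell by 1.22 with it. Of the formative list 13 of 22 genes had a higher difference and none a lower one, and 14 had a higher one without RA_24h replicate 2.

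The negative differences included genes that went opposite ways. Lama1, a laminin chain of basement membranes, went from 7.76, 6.28 and 6.97 TPM to 3.37, 3.68 and 3.05 TPM without RA, but from 7.07, 7.61 and 8.05 TPM to 37.1, 35.1 and 32.3 TPM with RA, a difference of -2.93 (SE 0.14, adjusted p = 1.58e-07 in limma). The fructose bisphosphatase gene Fbp2 fell by 0.50 without RA and rose by 1.11 with it, a difference of -1.62. H19, an imprinted noncoding RNA, rose in both but by 1.08 without RA and 3.38 with it. Tbx3 fell by 2.20 without RA and by 0.42 with it, and stayed at 110, 94.9 and 101 TPM in RA_24h. The connexin gene Gjb5 and the autophagy receptor gene Calcoco2 fell by 1.96 and 1.90 without RA, and changed by -0.10 and -0.21 with it. Of 15 endoderm genes 13 had a lower difference (14 without RA_24h replicate 2), and none had a higher one.

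With RA 2487 genes (17.8%) were higher and 2339 (16.8%) lower at 24 h than at 12 h, and 2061 and 1971 without RA_24h replicate 2. The genes higher in both cultures numbered 1207, which is 50.7% of those higher without RA and 48.5% of those higher with it. The genes lower in both numbered 1741, which is 55.3% and 74.4% of the respective calls. The 2 changes share no library, but both run towards higher scores on the library axis. The RA_12h libraries scored -37.1, -41.1 and -33.8, below all RA_24h libraries (-16.9, 51.6 and -29.5). Likewise noRA_12h replicates 2 and 3, though not replicate 1, scored below all noRA_24h libraries. How far the axis enters the shared calls was not tested. Of the 12 largest rises without RA 9 were also higher with RA, the other 3 being Fgf5, Vrtn and Enpp2, and all 12 of the largest falls were also lower with RA. The difference between the cultures passed (limma, adjusted p below 0.05) for 8 of these 12 rises, those 3 included, and 5 of these 12 falls. Over all genes it passed for 6.85%. Both sets were picked by the change without RA, which is part of that difference, so they were more likely to pass and the counts only describe them. Adm went from 0.987, 1.10 and 1.14 TPM to 16.2, 15.8 and 16.2 TPM with RA, a change of 3.04 (SE 0.11), and Ly6a from 286, 277 and 266 TPM to 24.4, 20.9 and 24.7 TPM, a change of -3.51 (SE 0.08). The rise of Adm was larger without RA, with a difference of 1.525 (SE 0.16, adjusted p = 6.90e-05 in limma), while that of Ly6a was 0.00085 (SE 0.12). The hypoxia list had 19 genes higher and 1 lower with RA (median 1.29), the ATF4 list 13 higher and none lower (median 1.03), and the naive list 1 higher and 13 lower (median -0.97). The difference between the cultures was lower for 4 of 16 ATF4 genes and 2 of 23 hypoxia genes, against 4.17% of all genes. It was higher for none of the former and 1 of the latter. Without RA_24h replicate 2 it was lower for 6 and 3. For cholesterol and fatty acid synthesis the counts were 5 higher and 2 lower (median 0.15) with RA, and 7 of its 20 genes had a higher difference between the cultures. Nanog and Esrrb fell by 1.26 and 1.41 with RA, against 1.29 and 1.33 without it, and the difference did not pass for either (-0.02, SE 0.10, for Nanog and 0.08, SE 0.14, for Esrrb). Other naive genes did differ: of 15 the difference was higher for 3 and lower for 3, against 2.68% and 4.17% of all genes. Nr0b1 had a difference of 1.10 (adjusted p = 3.12e-04 in limma) and Klf4 of -0.72 (adjusted p = 6.34e-04 in limma).

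**Figure D5:**
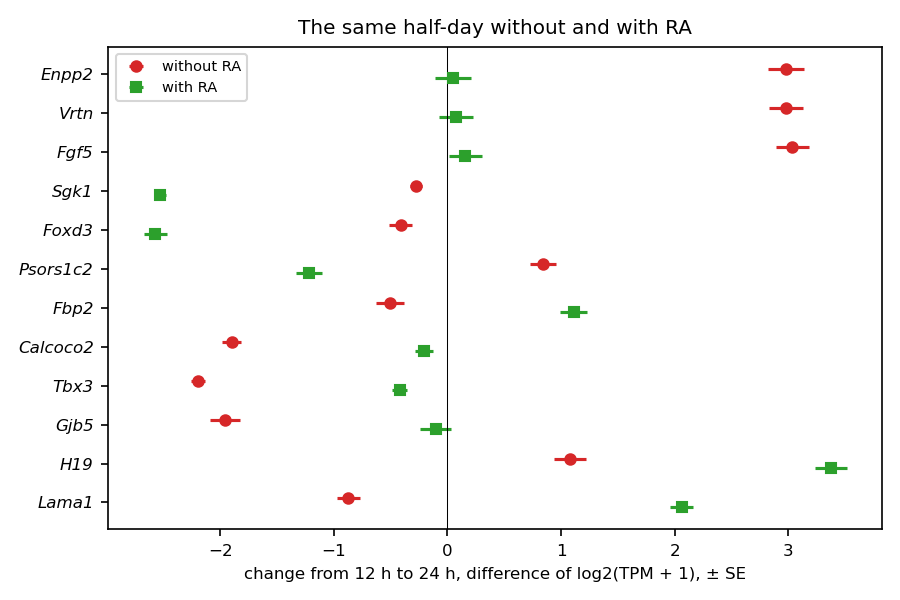
Change from 12 h to 24 h, as a difference of log2(TPM + 1) with its SE (bars), without RA (red circles) and with RA (green squares), for the 12 genes whose changes differed most among those past the threshold in both tests. Enpp2, Vrtn and Fgf5 lie near 3 without RA and near 0 with RA, while Lama1 and Fbp2 lie on opposite sides of 0.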

How the data were processed

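Each library had its own gene abundance table with columns for coverage, FPKM and TPM. The submitters' processing notes name HISAT2, StringTie and the build mm10. Their versions are not given in the sources used. The deposited TPM values were scaled by the authors for gene length and library size, per the file headers. The deposited FPKM values, scaled likewise per the file headers, served as an alternative. The deposited coverage (signal, the mean read depth per base, per the file headers) gave the aligned gigabases of each library through its ratio to FPKM. The tables hold no read counts, so no count test was run. Strand is not stated, so overlapping and antisense genes are uncertain, and the labels name several sequencing instruments without saying which library ran on which.

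The 13948 genes that reached 1 TPM in 3 or more of the 15 time course libraries were tested on log2(TPM + 1). A single limma fit (version 3.58.1, R 4.3.3) held all 15 libraries and used a variance trend on mean level, with Benjamini-Hochberg adjustment and a threshold of 0.05. The script was tested on simulated data. For 99.9% of the genes GENCODE M21 gave exonic length and GC content, which entered as natural splines with 4 degrees of freedom. The axis is the first principal component of deviations from group means. It was drawn from the same 15 libraries that it then adjusts, so p-values with it as a covariate can be too small for genes with a large weight. Tables and figures used matplotlib 3.10.9, pandas 2.3.3 and numpy 2.4.6 in Python 3.11.15.

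Members and gene lists were chosen with earlier results of these data known, so no list was tested, and list counts are to be read against the shares over all genes. Named genes were the 12 highest and 12 lowest changes past the threshold (libraries not overlapping, mean of at least 5 TPM in the higher group, predicted models left out), Fgf5, Enpp2 and Vrtn, up to 6 members per list with the largest changes past the threshold, and the 6 highest and 6 lowest for each of the other comparisons. The hypoxia list was not held to 6 members, and any of its genes past the threshold could be named. Others, such as Pds5a, Otx2 and list members that did not pass, were looked up after their values had been seen. Alternatives were quantile normalization, median-of-ratios scaling, FPKM, a filter at a mean of 5 TPM or none, a pseudocount of 0.1, no variance trend, array weights, only the groups compared, leaving out each library, a block for the replicate number, the length and GC correction and the axis as a covariate. The correction combined with the block, and RA culture without RA_24h replicate 2, were added after the data were seen.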

Additional observations from a re-analysis of the deposited data

Results flagged for a closer look

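The change from 12 h to 24 h differed between culture without and with RA, by the test of the difference in limma, for 374 genes in the positive and 581 genes in the negative direction. The following differences are the change without RA minus the change with RA, on the log2(TPM + 1) scale with 3 libraries in each of 4 groups. Enpp2, Vrtn and Fgf5, with 2.93, 2.91 and 2.88, were above 8 TPM in each noRA_24h library and below 0.4 TPM in each RA_24h library. Sgk1 (2.26) and Foxd3 (2.16) fell in both cultures, further with RA. Psors1c2 (2.06) rose without and fell with RA. Lama1 (-2.93) and Fbp2 (-1.62) fell without and rose with RA. H19 (-2.30) rose in both, further with RA. For Gjb5 (-1.86), Tbx3 (-1.78) and Calcoco2 (-1.69) the fall without RA was the larger one. All 12 genes were named because of the size of this difference, so the order among them is a description. They were drawn from genes that also passed from 12 h to 24 h without RA, with predicted models, low genes and overlapping libraries left out. Genes outside that rule can differ more: Sox17, which did not pass without RA, had a difference of -3.60 (SE 0.36).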

How the results depend on the processing

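The counts depend on the noRA_12h libraries. Leaving out 1 library at a time, the calls from 12 h to 24 h ranged from 1570 to 3636 higher genes, the highest without noRA_12h replicate 1 and the lowest without noRA_12h replicate 2, and from 2415 to 3404 lower genes. For the later against the earlier change the ranges were 1533 to 3174 (the highest without noRA_12h replicate 1) and 2168 to 2986, and for the difference from RA culture 264 to 545 and 384 to 1075. The last range has 384 without RA_12h replicate 3, 385 without RA_24h replicate 1 and 1075 without RA_24h replicate 2. Array weights, whose estimation stopped before it converged, gave 5554 higher and 5070 lower genes from 12 h to 24 h, 5596 and 5018 for the later against the earlier change and 3179 and 4474 for the difference from RA culture. With the axis as a covariate that difference gave 1190 and 1742 genes. A mean of at least 5 TPM, which tests fewer genes, gave 1388 higher genes for the later against the earlier change and 383 lower genes for the difference from RA culture. Median-of-ratios scaling gave 385 and quantile normalization 279 lower genes for the latter. The causes of these shifts were not tested.

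Same-numbered replicates did not deviate together (correlations of their deviations from -0.84 to 0.42), so the numbers were not taken to pair samples. With the replicate block 1951 genes were higher and 2881 lower from 12 h to 24 h, and the block with the length and GC correction gave 1909 lower genes.

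With the axis as a covariate the change from 12 h to 24 h turned negative for Fbxo15 (-0.66), Kdm3a (-0.59), Tet1 (-0.59) and Tet2 (-0.65). With the length and GC correction it turned positive for Socs3 (0.23) and, with or without the block, for Etv5 (0.0070). The later minus the earlier change turned negative for Hoxc12 with a pseudocount of 0.1 (-0.62) and for Dcn with the correction, with or without the block (-0.030). Why these turned was not tested.

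Depth, at 2.96 to 3.91 aligned gigabases, limits low genes, and with 3 libraries a group a call that did not pass does not show that levels were equal.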
